A study of Mus musculus with 2 samples.

Results

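Collagen genes were examined in the transcriptome of mouse cavernous endothelial cells (MCECs) kept in high glucose. The members were all gene symbols written as Col, a number, the letter a and a number. This gave 44 symbols, in 54 rows, of 23183 symbols in all. There was 1 library from cells given the vehicle, HEPES-buffered saline (HG+HBS), and 1 from cells given pericyte-derived extracellular vesicle-mimetic nanovesicles (HG+PC-NVs). Both cultures were in medium with 30 mM glucose (HG), and PC-NVs, made by pushing cultured mouse cavernous pericytes through membranes, were added at 1 µg/mL. The labels give 5 days of glucose, whereas the methods of the study give RNA isolation 72 hours after the start of glucose and 24 hours after PC-NVs. MCECs were primary cells grown out of mouse penis in medium with VEGF (the study used male C57BL/6J mice aged 8 weeks), and how many mice gave each culture is not given in the sources used here. For cells put into high glucose, the methods of the study give 24 hours of serum starvation before the glucose. The comparison asks how PC-NVs alter gene expression in MCECs under HG. There were no replicates, so no test was possible, and every difference below is one between these 2 libraries.

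Collagens are proteins of 3 chains wound into a triple helix, and each chain has its own gene. Fibrillar collagens (types I, III and V among them) build the fibres of connective tissue, and type IV builds the sheet of the basement membrane on which endothelial cells and pericytes rest. FACIT collagens sit on the surface of fibrils, type VI forms beaded filaments around cells, and types XV and XVIII are basement membrane proteins with sugar chains, called multiplexins. In vessels, fibrillar and type VI chains are made mainly by fibroblasts and mural cells, while endothelial cells are known for types IV, VIII, XV and XVIII.

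The genes of the type IV chains α1 and α2 share their start region. On GRCm38, Col4a1 lies on the reverse strand of chromosome 8 from 11198423 to 11312826 and Col4a2 on the forward strand from 11312805 to 11449287. The transcription starts are 21 bases apart, and the annotated genes overlap by 22 bases. Because the genes are read from opposite strands at this point and the counting by strand is not given in the sources used here, reads in the overlap cannot be assigned with certainty. Each promoter window holds 250 bases before and 50 bases after the start (RefSeq, GRCm38.p6), and the pair is shown because these genes, the main type IV chains, start next to each other. The windows are chr8:11312777-11313076 for Col4a1 (reverse strand) and chr8:11312555-11312854 for Col4a2 (forward strand). The 78 bases that both windows hold, read on opposite strands, are in capitals.
Col4a1: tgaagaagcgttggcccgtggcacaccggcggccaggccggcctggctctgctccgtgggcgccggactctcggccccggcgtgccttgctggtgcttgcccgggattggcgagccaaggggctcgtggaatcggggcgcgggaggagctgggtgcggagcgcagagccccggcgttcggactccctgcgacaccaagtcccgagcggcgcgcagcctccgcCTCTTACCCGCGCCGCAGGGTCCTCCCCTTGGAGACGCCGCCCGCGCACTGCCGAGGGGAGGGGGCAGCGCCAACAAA
Col4a2: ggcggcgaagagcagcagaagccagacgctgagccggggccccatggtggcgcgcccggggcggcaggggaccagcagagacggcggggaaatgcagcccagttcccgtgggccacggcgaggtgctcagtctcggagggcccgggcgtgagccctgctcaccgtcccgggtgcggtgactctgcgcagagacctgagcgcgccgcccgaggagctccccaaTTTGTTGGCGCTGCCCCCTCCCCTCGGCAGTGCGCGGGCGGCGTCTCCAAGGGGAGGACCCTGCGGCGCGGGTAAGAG

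The windows of 3 further members are shown because these had the lowest ratios in the fibrillar, beaded filament and multiplexin classes. They are chr6:4505368-4505667 for Col1a2 (forward strand), chr10:76623581-76623880 for Col6a2 (reverse strand, the upstream one of its 2 windows) and chr4:47207762-47208061 for Col15a1 (forward strand). Capitals mark matches, on either strand, to the 3 motifs that are spelled out after the sequences.
Col1a2: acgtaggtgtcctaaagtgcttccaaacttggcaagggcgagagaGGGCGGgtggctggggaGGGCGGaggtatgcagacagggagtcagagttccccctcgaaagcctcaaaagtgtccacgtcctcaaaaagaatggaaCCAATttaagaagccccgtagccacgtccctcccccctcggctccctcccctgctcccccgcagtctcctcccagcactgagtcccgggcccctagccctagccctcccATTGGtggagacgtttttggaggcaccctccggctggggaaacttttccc
Col6a2: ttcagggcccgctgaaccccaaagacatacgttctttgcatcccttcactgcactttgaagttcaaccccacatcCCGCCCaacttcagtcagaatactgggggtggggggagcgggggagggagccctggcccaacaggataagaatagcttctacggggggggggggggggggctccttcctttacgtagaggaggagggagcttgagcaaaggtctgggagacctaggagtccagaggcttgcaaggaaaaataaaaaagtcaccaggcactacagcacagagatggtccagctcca
Col15a1: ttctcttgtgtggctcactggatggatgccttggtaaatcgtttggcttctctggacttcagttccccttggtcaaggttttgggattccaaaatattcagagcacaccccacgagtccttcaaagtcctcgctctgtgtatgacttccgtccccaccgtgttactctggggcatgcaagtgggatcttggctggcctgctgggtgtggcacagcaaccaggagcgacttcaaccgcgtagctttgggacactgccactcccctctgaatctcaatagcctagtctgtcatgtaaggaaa

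Windows were given for 17 of the 20 collagen genes compared below, 19 windows in all. Col1a1, Col5a2 and Col12a1 had none. GGGCGG, the core of a GC box, or its reverse complement CCGCCC was in 13 of these 19 windows (68.4%), against 35.7% of all 32851 windows. CCAAT or ATTGG was in 7 of 19 (36.8%), against 37.4% of all. TATAA or TTATA was in 1 of 19 (5.26%), that of Col3a1, against 24.9% of all. These 19 windows are of genes past a filter on level, whereas the set of all windows was not filtered. In the 38 windows of all collagen genes given one, GGGCGG was in 23 (60.5%), CCAAT in 13 (34.2%) and TATAA in 7 (18.4%), on either strand. Some motifs can share letters where they meet (the first, read in reverse, ends as the second begins), so matches are not fully independent. The single match to the first motif in the Col4a1 window lies in the bases shared with Col4a2 and is counted in both windows, and the 2 windows of Col6a2 overlap as well. Col1a2 held the first motif at 2 places and the second at 2, while the Col15a1 window held none of the 3. These matches describe the letters in the windows only.

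The values are normalized FPKM, a measure of fragments scaled by transcript length and depth, recovered from the deposited log2(FPKM + 1) values and summed over the rows of a symbol. FPKM is per length, so levels of different genes are set side by side below, but only roughly. The ratio of Col6a3 to Col6a1 under HG+HBS, for example, was 2.31 with rows summed against 1.47 with the highest row of each symbol. Ratios between chains are ratios of RNA and do not count chains of protein. From the steps between low values, the depth was estimated at 13223900 fragments in the HG+HBS library against 11728500 with PC-NVs. Intervals given with a fold are 95% Wilson intervals from these estimated fragments. They cover counting error only and say nothing of the spread between cultures. Where a pair of FPKM values is given with no label, the first is that of HG+HBS. A fold is the ratio of FPKM, HG+PC-NVs over HG+HBS, whereas a log2 ratio is on the log2(FPKM + 1) scale, which understates differences of low genes.

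The label of the cells was set against marker genes. Of 14 endothelial markers, 8 were under 1 FPKM in both libraries. Cdh5, the junction protein VE-cadherin, had 5.05 FPKM under HG+HBS against 5.73 under HG+PC-NVs, Pecam1 had 1.05 and 0.938, Kdr had 0.518 and 0.438, and Vwf had 0.158 and 0.128. The highest endothelial markers were Eng (29.0 and 21.4 FPKM), Esam (17.4 and 11.7) and Egfl7 (9.48 and 8.57). Several fibroblast and mural markers were higher than any of these. Pdgfra had 149 and 129 FPKM, Pdgfrb had 38.4 and 33.7, Thy1 had 549 and 412, and decorin (Dcn) had 623 and 1283. Other markers of that list, those of contractile or mural cells, were mixed. Acta2 had 27.6 and 8.02 FPKM, Cspg4 had 20.4 and 12.2, Tagln had 17.3 and 7.34, and Rgs5 had 1.69 and 7.23. Lower levels were those of Myh11 (0.0108 and 0.0122 FPKM), Cnn1 (0.722 and 0.221) and Des (1.07 and 0.137). Macrophage markers were also present, with 212 and 193 FPKM for Lyz2, 45.0 and 40.9 for C1qa, 36.2 and 26.3 for Cd68, 8.39 and 6.20 for Csf1r, 7.44 and 42.5 for Adgre1, and 1.44 and 1.67 for the pan-leukocyte gene Ptprc. The low levels of Pecam1, Kdr and Vwf beside those of Pdgfra, Thy1 and Dcn go against the label of the cells, and the collagen levels below are those of the cultures as sequenced.

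The collagens with the highest levels were those of connective tissue and of the basement membrane. In HG+HBS, 21 of the 44 members reached 1 FPKM and 5 reached 100 FPKM. In HG+PC-NVs, 20 reached 1 FPKM and 4 reached 100 FPKM. The highest was Col6a3, the large chain of type VI, with 336 FPKM under HG+HBS against 268 under HG+PC-NVs, followed by Col1a2 in both libraries. The 6 highest members held 78.9% of all collagen FPKM under HG+HBS against 77.5% under HG+PC-NVs. The order of levels was nearly the same in both libraries (Spearman's rho 0.974 over the 44 members, a description, since each point is a gene of the same libraries).

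Collagen as a whole was lower in HG+PC-NVs. The members summed to 1543 FPKM under HG+HBS against 1139 under HG+PC-NVs, a ratio of 0.739. This was 0.296% of the summed FPKM of all genes under HG+HBS against 0.196% under HG+PC-NVs. The sum over all genes was itself larger in HG+PC-NVs (521666 and 580717 FPKM), so the share of FPKM differed more than the level. FPKM is per length, so this is not a share of fragments. In estimated fragments, collagen held 133802 of 13223900 under HG+HBS against 89779 of 11728500 under HG+PC-NVs.

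**Figure D1:**
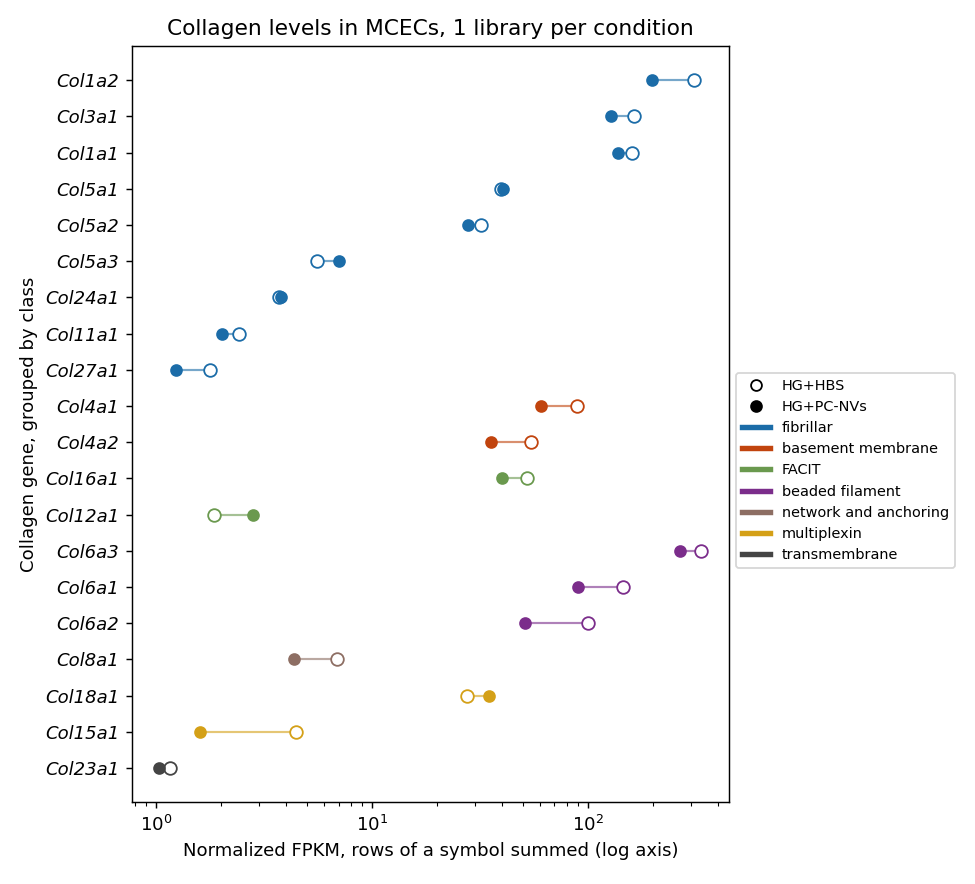
Level of the 20 compared collagen genes in normalized FPKM on a log axis, with open circles for HG+HBS and filled circles for HG+PC-NVs, 1 library each, coloured by class. The filled circle lies to the left for 15 of the 20 genes, and the widest gap is that of Col15a1, from 4.46 to 1.59 FPKM.

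For the comparison, the log2 values of a gene had to average 1 or more over both libraries, which 20 of the 44 members and 11785 of all symbols had. Of the 20, 15 had a log2 ratio below 0, against 51.6% of all symbols compared. A difference past 1.5-fold was counted as lower or higher. On this count 5 of the 20 were lower (Col15a1, Col6a2, Col6a1, Col1a2 and Col4a2), against 3.57% of all symbols, and 0 were higher, against 5.33%. The median log2 ratio was -0.32 for the 20 members and -0.01 for all symbols. Past 2-fold, 1 member was lower, Col15a1, against 0.798% of all symbols, and 0 were higher, against 2.38%. Among genes whose log2 values averaged 5 or more, 9 of 10 members had a log2 ratio below 0, against 42.8% of 2652 symbols, and 4 were lower past 1.5-fold, against 2.38%.

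Log2 ratios also varied with the length and GC content of transcripts. When symbols were split into 25 bins by length and GC content, the bin medians of the log2 ratio ran from -0.13 to 0.12, and 8 of the 20 members were in the bin with the lowest median. After centring by these medians, an alternative chosen after seeing the data, 2 of the 20 members were lower past 1.5-fold (Col15a1 and Col6a2), 15 again had a ratio below 0, and the median was -0.22. Over all 11373 symbols in that setting, 3.27% were lower past 1.5-fold, 49.95% had a ratio below 0 and the median was 0. Length alone, without centring, gave values near those of all symbols. The 4069 symbols within the members' range of length (4100 to 11511 nt) had a median of -0.02, with 53.7% below 0 and 3.39% lower past 1.5-fold.

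Fibrillar collagens made up the largest class. Of 11 members, 9 were compared, of which 6 had a log2 ratio below 0, 1 was lower past 1.5-fold and 0 were higher, against 51.6%, 3.57% and 5.33% of all symbols. Col1a2, the α2 chain of type I, the main collagen of skin, bone and vessel walls, had 312 FPKM under HG+HBS against 198 under HG+PC-NVs, a fold of 0.636 (0.623 to 0.651, from about 22056 and 12449 fragments). Its partner Col1a1, the α1 chain, had 161 and 139 FPKM, a fold of 0.862 (0.840 to 0.885). The α2 chain was thus lower by more than the α1 chain of the same trimer, and the intervals for counting error do not overlap. Type I collagen holds more α1 than α2 chains, whereas the ratio of Col1a1 to Col1a2 FPKM was 0.515 under HG+HBS against 0.698 under HG+PC-NVs.

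Col3a1, the single chain of type III, which runs with type I in distensible tissue, had 163 and 128 FPKM, a fold of 0.785 (0.763 to 0.807). Type V collagen, which sits inside type I fibrils and limits their width, did not follow as a whole. Col5a1 had 39.6 and 40.3 FPKM, a fold of 1.02 (0.973 to 1.06), so no difference was detectable at this depth. Col5a2 had 32.0 and 27.7 FPKM, a fold of 0.865 (0.818 to 0.915). Col5a3 was on the other side, with 5.53 FPKM under HG+HBS against 7.02 under HG+PC-NVs, a fold of 1.27 (1.12 to 1.44). Col3a1 and Col5a2 are neighbours on chromosome 1, 24.6 kb apart with their ends facing each other, and both stayed within 1.5-fold.

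The remaining fibrillar genes were low. Col24a1 had 3.69 and 3.79 FPKM, Col11a1 had 2.41 and 2.01, and Col27a1 had 1.78 and 1.24. The fold of Col27a1 was 0.694 (0.548 to 0.880, about 179 and 111 fragments), while the intervals of Col24a1 (0.881 to 1.19) and Col11a1 (0.687 to 1.01) include 1. Col2a1 and Col11a2, chains known from cartilage, were not compared. Col11a2 had 0.101 and 0.0878 FPKM, and Col2a1 had 0.0145 FPKM in HG+HBS and was listed at 0 in HG+PC-NVs.

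**Figure D2:**
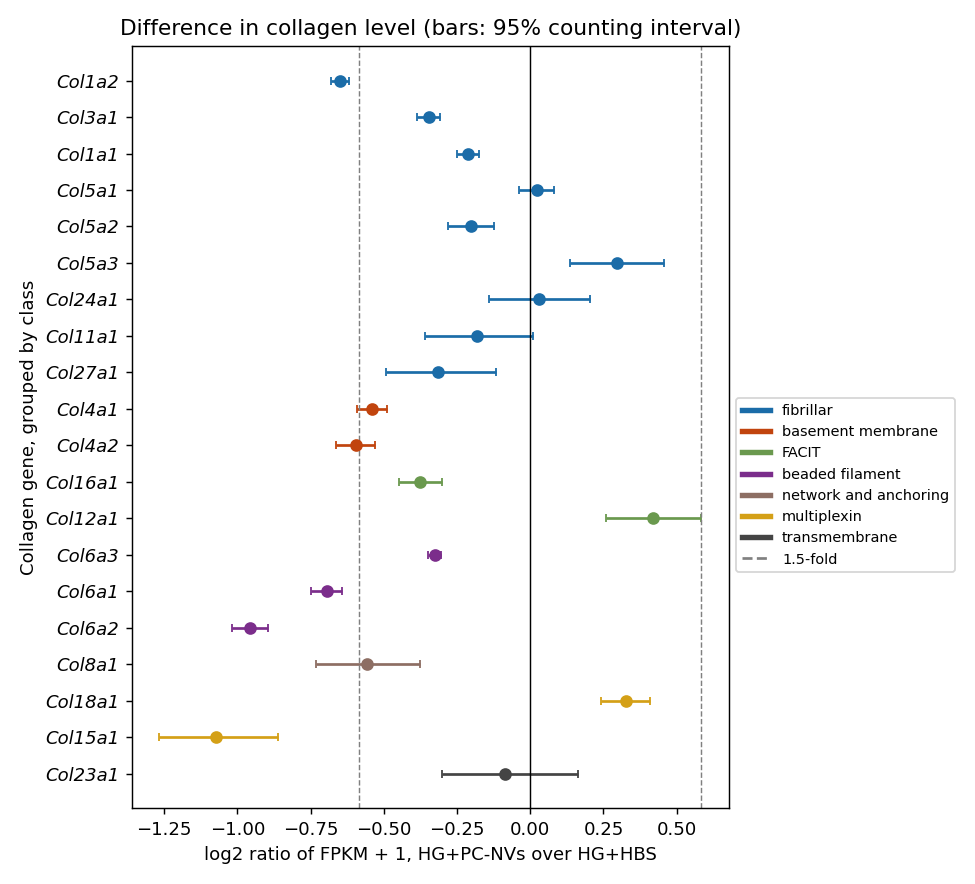
The log2 ratio of FPKM + 1 (HG+PC-NVs over HG+HBS) of the 20 compared collagen genes, with bars for the 95% counting interval and dashed lines at 1.5-fold. Col15a1, Col6a2, Col6a1, Col1a2 and Col4a2 lie left of the lower line, no gene lies right of the upper one, and the highest ratio is that of Col12a1 (0.42).

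Of the 6 basement membrane chains of type IV, only the widespread pair Col4a1 and Col4a2 passed the filter. Col4a1 had 88.9 FPKM under HG+HBS against 60.8 under HG+PC-NVs, a fold of 0.684 (0.660 to 0.709). Col4a2 had 54.3 and 35.6 FPKM, a fold of 0.655 (0.625 to 0.687). The intervals of the pair, whose start regions are printed above, overlap, although only Col4a2 passed 1.5-fold on the log2(FPKM + 1) scale. The ratio of Col4a1 to Col4a2 FPKM was 1.64 under HG+HBS against 1.71 under HG+PC-NVs, where the trimer has more α1 than α2 chains.

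The other type IV pairs are also arranged head to head, with 71 bases between Col4a3 and Col4a4 on chromosome 1 and 1308 bases between Col4a5 and Col4a6 on the X chromosome. Col4a5 lay just under the filter, with a mean log2 value of 0.87. It had 1.24 FPKM under HG+HBS against 0.481 under HG+PC-NVs (about 107 and 37 fragments). Its 2 rows went opposite ways, from 1.24 FPKM to a value listed at 0 in the first, and from 0.000375 to 0.481 FPKM in the second, so only the sum can be read. Col4a6 had 0.127 and 0.0613 FPKM, Col4a3 had 0.0892 and 0.0564, and Col4a4 had 0.0629 and 0.0519, each resting on a handful of fragments. Col23a1, with a mean log2 value of 1.07, was the lowest member just inside the filter.

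Type VI and fibrillar collagens were the only classes with more than 2 compared genes. Type VI had the lower median of these 2 classes, -0.70 on the log2 scale over 3 genes, against -0.20 over 9 fibrillar genes. Of the 3 type VI genes, 2 were lower past 1.5-fold, against 3.57% of all symbols. The α1, α2 and α3 chains of type VI join into 1 monomer. Col6a1 had 146 FPKM under HG+HBS against 89.6 under HG+PC-NVs, a fold of 0.615 (0.593 to 0.638). Col6a2 had 99.8 and 50.9 FPKM, a fold of 0.510 (0.488 to 0.533). Col6a3, the highest collagen of both libraries, had the mildest difference of the 3, a fold of 0.797 (0.785 to 0.808).

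Both rows of Col6a3 were lower, from 215 to 180 FPKM and from 121 to 87.7 FPKM. The intervals of Col6a1, Col6a2 and Col6a3 do not overlap each other, so the chains differed unequally. The ratio of Col6a3 to Col6a1 FPKM was 2.31 under HG+HBS against 2.99 under HG+PC-NVs, and that of Col6a1 to Col6a2 was 1.46 and 1.76. Col6a1 and Col6a2 lie 85.2 kb apart on chromosome 10, on the same strand. Col6a4, Col6a5 and Col6a6, the late-described chains of the type, were under 0.04 FPKM in both libraries, fewer than 3 estimated fragments each.

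Multiplexins had the lowest and one of the highest ratios of the family. Col15a1, whose protein links the basement membrane to the fibres beneath it, had 4.46 FPKM under HG+HBS against 1.59 under HG+PC-NVs, a fold of 0.357 (0.284 to 0.449, about 305 and 97 fragments). Of the 11785 symbols compared, its log2 ratio of -1.07 ranked 79 from the lowest, and that of Col6a2 (-0.96) ranked 110. Col18a1, the source of the fragment endostatin, had 27.6 and 34.8 FPKM, a fold of 1.26 (1.19 to 1.34). Of its 2 rows, the larger went from 23.2 to 30.9 FPKM and the smaller from 4.38 to 3.92 FPKM. The files do not say which transcript a row stands for.

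Of the 9 FACIT collagens, 2 were compared. Col16a1 had 52.1 FPKM under HG+HBS against 40.0 under HG+PC-NVs, a fold of 0.767 (0.728 to 0.807). Col12a1, which decorates type I fibrils, had the highest ratio of the 20, with 1.86 and 2.82 FPKM, a fold of 1.52 (1.30 to 1.77) and a log2 ratio of 0.42. It therefore stayed within 1.5-fold on the log2(FPKM + 1) scale. Col14a1 had 0.131 and 0.0759 FPKM, and Col9a1, Col9a2, Col9a3, Col19a1, Col20a1 and Col22a1 were under 0.2 FPKM in both libraries.

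Col8a1, a chain of the short network collagen of vessel walls and endothelium, had 6.87 FPKM under HG+HBS against 4.35 under HG+PC-NVs, a fold of 0.633 (0.544 to 0.737). On the log2(FPKM + 1) scale this was -0.56, just within 1.5-fold. Its partner Col8a2 had 0.0497 and 0.0382 FPKM, fewer than 3 estimated fragments in each library. Col7a1, of the anchoring fibrils of skin, had 0.0836 and 0.238 FPKM, and Col10a1, of growth plate cartilage, had 0.326 and 0.570 FPKM. Of the transmembrane collagens, Col23a1 had 1.16 and 1.03 FPKM, a fold of 0.891 (0.650 to 1.22), and Col13a1, Col17a1 and Col25a1 were under 0.3 FPKM in both. Col28a1 had 0.169 and 0.157 FPKM, and Col26a1 was listed at 0 in both libraries.

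Summed over all members of a class, the fibrillar collagens had 721 FPKM under HG+HBS against 547 under HG+PC-NVs, a ratio of 0.759. Type IV had 145 and 97.1 FPKM (0.671), type VI had 582 and 408 FPKM (0.702), and the FACIT class had 54.2 and 43.2 FPKM (0.797). The multiplexins went the other way, with 32.0 and 36.4 FPKM (1.14), through Col18a1. The classes' shares of the collagen pool were as follows. Fibrillar chains held 46.7% of it under HG+HBS against 48.0% under HG+PC-NVs, type VI held 37.7% and 35.8%, and type IV held 9.38% and 8.52%. The multiplexins held 2.08% and 3.20%, the widest relative difference among these.

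**Figure D3:**
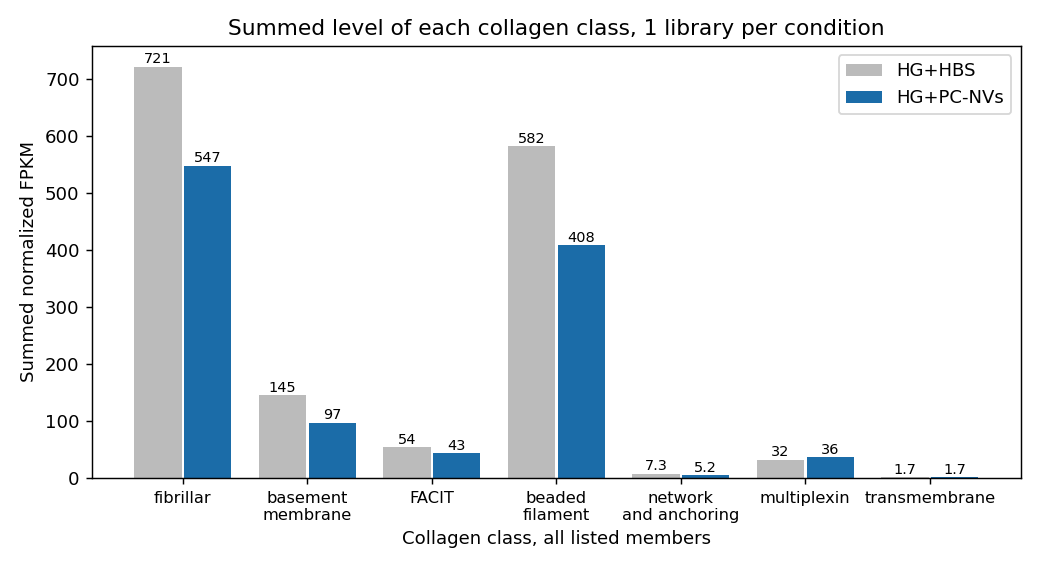
Summed normalized FPKM of each collagen class, with grey bars for HG+HBS and blue bars for HG+PC-NVs, 1 library each, all listed members of the class included. Fibrillar and type VI (beaded filament) chains make up most of both libraries' collagen, and each of the 4 largest classes is lower in HG+PC-NVs.

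Of the 44 members, 24 were under the filter. Of these, 10 had fewer than 3 estimated fragments in both libraries, and 2 more in 1 of them. No fold is given for these members, and the others under the filter, Col4a5 apart, rest on few fragments.

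The genes that modify, fold, trim and cross-link collagen, or bind it on cells, lay on both sides of 0. Of 47 listed genes, 39 were compared, of which 2 were lower past 1.5-fold, against 3.57% of all symbols, and 4 were higher, against 5.33%. Their median log2 ratio was -0.01, and 21 of 39 were below 0, against 51.6% of all symbols.

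Within the cell, proline hydroxylation stabilizes the helix. P4ha2, a catalytic subunit of prolyl 4-hydroxylase, had 8.38 FPKM under HG+HBS against 14.5 under HG+PC-NVs, a fold of 1.73 (1.51 to 1.98). P4ha1, the main catalytic subunit, had 40.0 and 54.4 FPKM (fold 1.36), and P4hb, the partner subunit and a disulphide isomerase, had 376 and 527 FPKM (fold 1.40), both within 1.5-fold. P4ha3 had 6.04 and 5.26 FPKM, and its interval includes 1 (0.704 to 1.08). Tmem38b, an ion channel of the endoplasmic reticulum needed for normal type I collagen, had the highest ratio of the list, 7.29 and 22.6 FPKM (fold 3.10, 2.71 to 3.56).

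The collagen chaperone Serpinh1, at 304 and 310 FPKM, had a fold of 1.02 (0.989 to 1.05) where Col1a2 had 0.636. Sparc, a matrix protein that binds collagen, had 476 and 419 FPKM (fold 0.879). Creb3l1, a transcription factor known to act on type I collagen genes, was lower, with 11.5 and 6.48 FPKM (fold 0.563, 0.475 to 0.668). In this sublist 22 of 24 genes were compared, 11 below 0 and 11 above.

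Outside the cell, propeptides are cut off and chains are joined by lysyl oxidases. Lox, the founding lysyl oxidase, was higher in HG+PC-NVs, with 56.5 and 91.3 FPKM (fold 1.62, 1.55 to 1.69). Loxl3 was lower, with 106 and 53.3 FPKM (fold 0.504, 0.481 to 0.528), and Loxl1 had 161 and 122 FPKM (fold 0.757). Lysyl oxidase genes thus lay on both sides. Pcolce, which speeds the removal of the C-propeptide, had 582 and 514 FPKM (fold 0.883). Of other genes listed for propeptide removal, Adamts2 had 3.54 and 2.15 FPKM (fold 0.607) and Adamts14 had 2.92 and 1.64 (fold 0.562). Bmp1 had 69.2 and 65.2 FPKM (fold 0.943). Pcolce2 had 2.37 and 3.58 FPKM (fold 1.51) and Tll1 had 19.3 and 23.3 (fold 1.21). Each of these stayed within 1.5-fold on the log2(FPKM + 1) scale. In this sublist 11 of 13 genes were compared, 7 below 0 and 4 above.

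Among receptors, Itga2, the α2 chain of a collagen-binding integrin, was higher, with 14.5 and 27.3 FPKM (fold 1.88, 1.76 to 2.01). Its partner Itgb1 had 214 and 233 FPKM (fold 1.09). Mrc2, the receptor that takes up collagen for breakdown, had 186 and 129 FPKM (fold 0.695), and Ddr2, a kinase that senses fibrillar collagen, had 66.3 and 51.9 FPKM (fold 0.782). Of 10 genes, 6 were compared, 3 below 0 and 3 above.

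**Figure D4:**
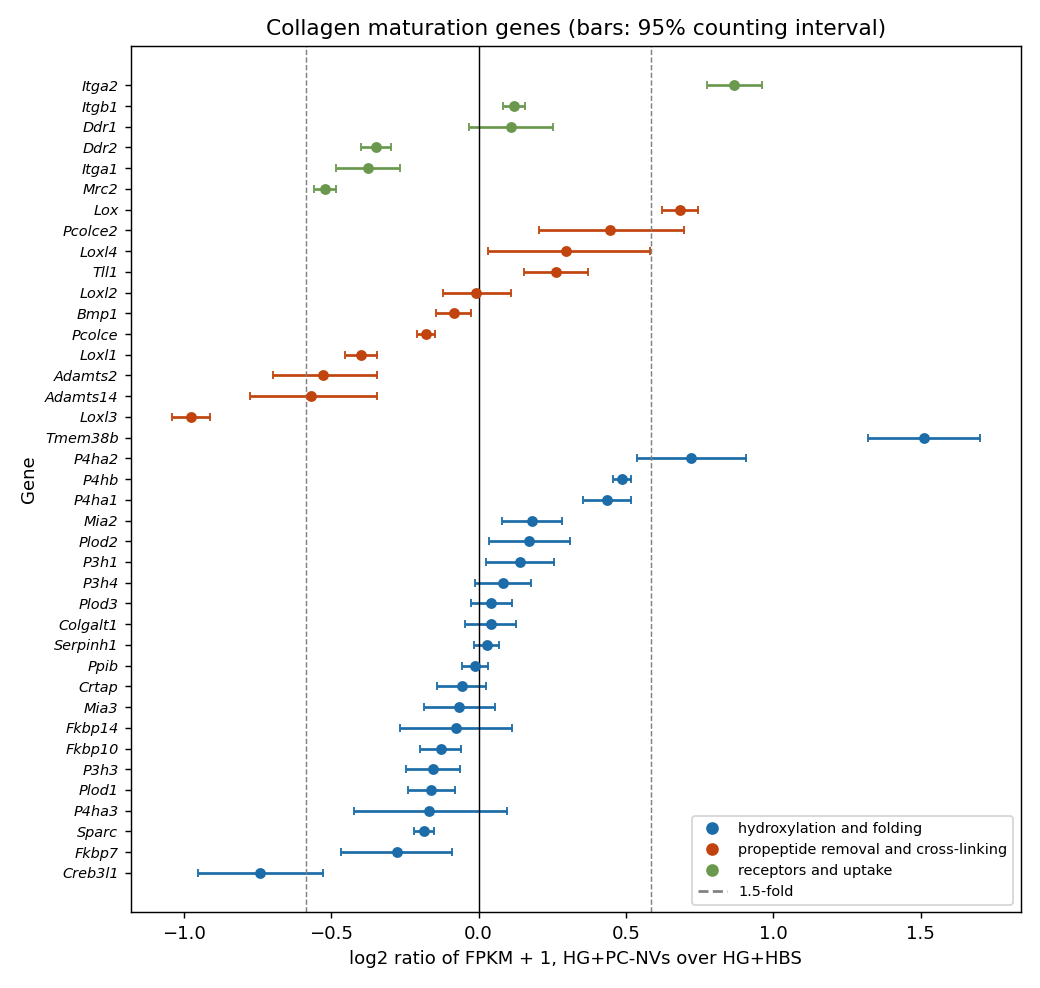
The log2 ratio of FPKM + 1 (HG+PC-NVs over HG+HBS) of the 39 compared genes of collagen maturation and binding, with bars for the 95% counting interval and dashed lines at 1.5-fold. Tmem38b, Itga2, P4ha2 and Lox lie right of the upper line, Loxl3 and Creb3l1 left of the lower one, and the rest spread on both sides of 0.

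Markers of collagen-making cells were read beside these results. Of 13 fibroblast and mural markers, 10 were compared, of which 4 were lower past 1.5-fold (Fap, Acta2, Tagln and Cspg4), 2 were higher (Dcn and Rgs5), against 3.57% and 5.33% of all symbols, and the median log2 ratio was -0.36, against -0.01. Acta2, smooth muscle actin, had 27.6 and 8.02 FPKM (fold 0.290), and Fap had 62.2 and 37.8 FPKM (fold 0.607), whereas Dcn, a small proteoglycan that binds collagen fibrils, had a fold of 2.06. The sum of the 13 markers was 1536 FPKM under HG+HBS against 1966 under HG+PC-NVs, most of it Dcn and Thy1. The larger sum came mainly from Dcn (623 and 1283 FPKM), whereas Thy1 was lower (549 and 412 FPKM). Of the 10 compared, 8 had a log2 ratio below 0 and 2 above, against 51.6% of all symbols below 0. Myh11 was near 0 in both libraries. The endothelial list summed to 65.6 and 50.8 FPKM (5 of 14 compared, 0 past 1.5-fold) and the macrophage list to 310.3 and 310.5 FPKM (6 of 6 compared, of which Adgre1 was higher past 1.5-fold). The part of these cells in the collagen difference was not tested, and in bulk RNA fewer cells of a type and less RNA per cell cannot be told apart.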

How the data were processed

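RNA of 2 cultures was sequenced, 1 library per condition. Per the labels and the methods, the authors used a stranded kit on total RNA with poly(A) selection, removed adapters and low-quality reads, aligned with TopHat to mm10, computed FPKM with Cufflinks and normalized in R with edgeR, naming quantile normalization; versions and annotation are not given in the sources used here. The authors deposited log2 values, taken from their range as log2(normalized FPKM + 1), in 33299 rows per library. The totals of the libraries differ (521666 and 580717 FPKM), so the deposited values are not quantile normalized to a common distribution, and which step they hold is not known. They were used as deposited, with quantile normalization as an alternative, put back on the FPKM scale and summed per symbol. Ratios used a pseudocount of 1 FPKM. The members and lists were chosen with earlier results of these data known.

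Genes named were all collagens past the filter (mean log2 of at least 1), maturation genes past 1.5-fold and the 3 highest per maturation sublist. Other maturation genes were named for context, chosen after their values were seen. The defining markers were Pecam1, Cdh5, Kdr, Vwf, Pdgfra, Pdgfrb, Dcn, Acta2 and Ptprc. Other listed markers that are named, Thy1 among them, were outside that choice and were added for context. The worth of 1 fragment was the most frequent low value of FPKM times length among 2189 genes that have 1 transcript, longer than 1500 nt (GENCODE M21, where 95.5% of symbols matched). It gave intervals with the longest transcript as length, and a floor of 3 fragments. No p-value was computed, since no test was possible with 1 library per condition. Promoter windows were chosen to be shown once the reference tables were seen. The calculations were tested on simulated data. Alternatives covered normalization, pseudocount, rows, filter, fold, and GC content with length. Calculations, intervals and rank correlation included, ran in Python 3.11.15 with pandas 2.3.3 and numpy 2.4.6, and plots in matplotlib 3.10.9.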

Additional observations from a re-analysis of the deposited data

How the results depend on the processing

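The 5 collagens lower past 1.5-fold numbered 5 or 6 under quantile normalization, median centring, upper-quartile scaling, a pseudocount of 0.1, the highest row of a symbol, all symbols above 0 in at least one library, and 4 with a mean log2 of at least 3. Over all symbols, the share lower past 1.5-fold in these settings ran from 2.62% (mean log2 of at least 3) to 5.80% (pseudocount of 0.1). There was 1 member past 2-fold, against 0.798% of all symbols. With GC and length centring there were 2, against 3.27%, with a median of -0.22. Over all symbols above 0, 29 of 43 members had a ratio below 0 with a median of -0.021. Of all 17763 symbols in that setting, 54.1% were below 0, with a median of -0.0002. Type IV had 6 of 6 below 0 and a median of -0.31, and type VI had 5 of 6 and -0.18. Quantile normalization moved Col1a2 from -0.65 to -0.81 and gave medians of -0.63 for type IV and -0.78 for type VI. Of the 20 members, 19 kept their sign in each alternative and 15 their side of 1.5-fold; the sign of Col5a1 (0.02) turned in at least 1, down to -0.04. Of the 39 maturation genes compared, 4 were lower with a pseudocount of 0.1, where the share over all symbols rose from 3.57% to 5.80%. Past 2-fold, 0 of them were lower and 1 was higher, against 0.798% and 2.38% of all symbols. With GC and length centring, chosen after seeing the data, the median of the maturation genes turned from -0.012 to 0.043. The collagen share was 0.293% (HG+HBS) and 0.202% (HG+PC-NVs) with quantile normalization, and 0.450% and 0.308% without the 100 highest other symbols. Apart from filters, the fold and the centring, whose construction changes the genes or values compared, the cause was not tested.

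No paired analysis was possible because each condition has a single library, and no replicate was there to leave out. Members with fewer than 3 fragments are limited by depth.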
